A study of Mus musculus with 36 samples.

Results

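The Runx1 locus was taken as the mm9 window from 92.5 to 93.05 Mb of chromosome 16, and its members were all regions of the 9 deposited ATAC-seq lists that overlap this window. There were 36 such regions among 122759, with 13, 10 and 13 of them listed for days 4, 7 and 14. The gene runs from about 92.6 to 92.83 Mb and is transcribed toward lower coordinates. The window was divided at these approximate ends into the gene body with 13 regions, 220 kb upstream of the gene with 20 regions and 100 kb downstream of it with 3 regions. Each region belonged to the part that held its midpoint, and the members were thus chosen by position and not by their tag values.

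ATAC-seq, in which a transposase inserts adapters into accessible DNA, was applied to left ventricular nuclei of FVB/N mice after a myocardial infarction or a sham operation. The infarcted hearts gave nuclei of the border zone, the surviving muscle next to the scar. Each of days 4, 7 and 14 after surgery had a single sham and a single border zone library, so no condition had a replicate within a day. The 30 RNA-seq samples were not analysed here, and no level of Runx1 RNA is given. On day 4 both groups were Cdh5-Cre; Sun1-sfGFP mice, in which an endothelial promoter drives the recombinase that switches on a nuclear envelope GFP, and the labels name GFP sorting and then a PCM1 pulldown to enrich cardiomyocyte nuclei. Which nuclei were kept on day 4, with or without GFP, is not stated in the labels, so the cell type behind the day 4 values rests on the PCM1 label. On days 7 and 14 both groups carried Myh6-MerCreMer, a tamoxifen-dependent recombinase under a cardiomyocyte promoter, with the nuclear reporter nTnG. Per the labels, they received tamoxifen at 20 mg/kg before surgery, and 50000 nuclei per sample were sorted. No label says how many animals gave the nuclei of a library. The genotype, the isolation of nuclei and the aligner change together between day 4 and the later days and cannot be told apart from the day. The labelled cell type was not checked against marker genes, because no mm9 annotation was used here. In nuclei pooled from many cells, a change in the number of cells with accessible DNA and a change in accessibility per cell cannot be told apart.

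Runx1 encodes the DNA-binding subunit of core-binding factor, which pairs with the product of Cbfb and binds a short TGTGGT-like motif. It is best known as a master regulator of blood formation, and it is transcribed from a distal and a proximal promoter. In the adult heart it is scarce in healthy cardiomyocytes and is known to rise in cardiomyocytes of the border zone after infarction. Values of Runx2, Runx3, Cbfb and the other genes of the pathway fixed for comparison were not analysed here, because their mm9 positions were not used.

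RefSeq lists 2 starts of Runx1 in its table of GRCm38.p6, a later build than mm9, both on the minus strand and 128.7 kb apart. Their sequences are shown because the gene's own regulator motif lies at the distal start, and because the base composition of the starts differs. They were not placed on the mm9 regions. The 250 bases before each start are given 5′ to 3′, followed by a short stretch from 25 to 46 bases after the distal start. Capitals mark motif matches on either strand, which are E-boxes (CANNTG) before the distal start, the ETS motif CCGGAA and the TEAD motif GGAATG before the proximal start, and the RUNX motif TGTGGT, read on the opposite strand, in the short stretch.
Distal start: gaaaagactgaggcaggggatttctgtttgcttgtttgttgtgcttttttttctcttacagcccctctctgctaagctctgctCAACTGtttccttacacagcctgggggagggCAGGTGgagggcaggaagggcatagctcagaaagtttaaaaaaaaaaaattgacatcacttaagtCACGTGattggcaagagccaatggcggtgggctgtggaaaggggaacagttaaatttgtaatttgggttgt
Proximal start: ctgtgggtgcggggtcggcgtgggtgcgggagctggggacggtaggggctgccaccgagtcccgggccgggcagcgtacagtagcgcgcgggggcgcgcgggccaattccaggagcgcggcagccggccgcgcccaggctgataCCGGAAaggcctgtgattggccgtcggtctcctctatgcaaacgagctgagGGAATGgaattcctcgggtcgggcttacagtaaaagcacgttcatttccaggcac
After the distal start: aacaACCACAgaACCACAagtt

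The searched window of each start ran from 250 bases before it to 50 bases after it. The distal start held 2 RUNX matches, at 29 and 37 bases after the start, and 3 E-boxes, at 167, 136 and 71 bases before it. Of 32851 RefSeq promoters of the same 300 bases, 16.8% held TGTGGT, 22.4% held TGTGGT or TGCGGT, 2.86% held at least 2 matches to either, and 72.3% held an E-box. The proximal start held the ETS motif at 106 bases and the TEAD motif at 55 bases before it, which 14.9% and 14.7% of promoters hold. The RUNX motifs TGTGGT and TGCGGT and the E-box were not found in the proximal window. The AP-1 motif TGANTCA, the MEF2 motif, the GATA motif AGATAA and the CRE motif TGACGTCA were found in neither window, where 7.81%, 3.69%, 11.2% and 1.79% of promoters hold them. The E-box is its own reverse complement and was counted once per position, and the match at 71 bases is CACGTG. The distal window had 45% G and C with 2 CpG dinucleotides, against 69% and 35 in the proximal window and a median of 52.7% and 7 over all promoters. A match is a description of letters and not a bound site.

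The lists give sham tags, which are reads counted in a region, and border zone tags scaled to the sham library. On day 4 the non-differential list gives unscaled border zone counts. A listed region had at least 35, 50 or 150 tags in the larger of its values on days 4, 7 and 14, and a differential region differed by at least 1.75-fold. A place missing from the lists of a day has no value here. A place with few tags could be listed only when one of its libraries was high, so counts of differential members are descriptions. All intervals are exact Clopper-Pearson 95% intervals of tag shares carried to the fold, and they cover counting error only, since the tags carry no molecular identifiers and copies of a molecule can be counted more than once.

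Border zone-higher regions were listed at Runx1 on days 7 and 14, in the gene body and far upstream, and none was listed on day 4. On day 4, 0 of the 13 listed regions were in the border zone-higher list, against 12.2% of all listed regions, and 1 was in the sham-higher list, against 7.37%. On day 7, 4 of 10 were border zone-higher, against 17.5%, and 1 was sham-higher, against 22%. On day 14, 6 of 13 were border zone-higher, against 13.4%, and 1 was sham-higher, against 6.75%. The gene body held 2 of the border zone-higher regions of day 7 and 3 of those of day 14, and no sham-higher region. The upstream part held 2 and 3 border zone-higher regions, and both of the sham-higher regions of these days. Over the listed regions of the locus, log2 of border zone over sham had medians of -0.16, 0.54 and 0.76 for days 4, 7 and 14, where all listed regions gave -0.09, -0.14 and 0.03.

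**Figure D1:**
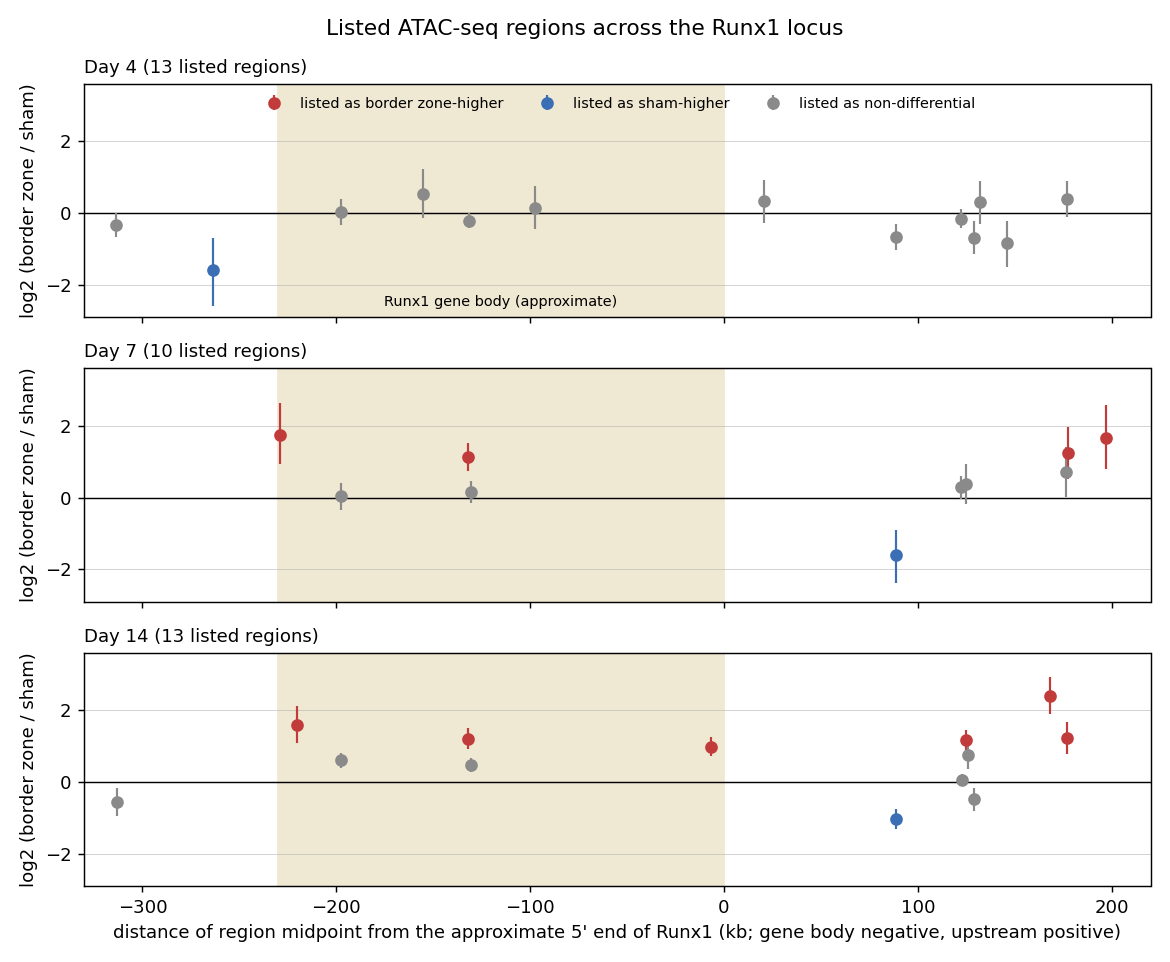
Log2 of border zone over sham tags (y axis) of each of the 36 listed regions is plotted by the distance of its midpoint from the approximate 5′ end of Runx1 (x axis, kb), with 1 panel for each day, bars for the 95% counting interval, colour for the authors' list and shading for the gene body. Border zone-higher regions appear on days 7 and 14 in the gene body and far upstream, and 1 upstream region is sham-higher on both of these days. Non-differential regions of day 4 are shown with unscaled border zone counts.

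The regions of the 3 days were joined into 20 loci where they overlapped by at least 1 bp, and 5 loci were listed on all 3 days. These are a locus in the 3′ part of the gene body, a locus in the middle of the gene, and 3 upstream loci at about 89, 123 and 177 kb from the 5′ end. A further 3 loci were listed on 2 days and 12 on a single day, which was day 4 for 6 of them, day 7 for 2 and day 14 for 4.

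The mid-gene locus at chr16:92696751-92699750 had the most sham tags of the gene body. It lies about 132 kb from the approximate 5′ end of the gene, and whether it covers the proximal start cannot be told without an mm9 annotation. On day 4 its 3 kb were listed as a single non-differential region with 441 sham and 382 border zone tags. On these unscaled border zone counts the fold of border zone over sham was 0.866 (0.753 to 0.996). In the fit with scaled libraries, described with the tests over days, the day 4 log2 ratio was -0.04.

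On days 7 and 14 the same 3 kb were listed as 2 adjoining regions, which differed in their lists. The 2 kb at chr16:92696751-92698750, on the side toward the 3′ end of the gene, were border zone-higher. They had 86 sham and 187 border zone tags on day 7, a fold of 2.18 (1.65 to 2.88). On day 14 they had 161 sham and 373 border zone tags, a fold of 2.32 (1.90 to 2.83). The neighbouring 1 kb at chr16:92698751-92699750 had more sham tags per kb than these 2 kb and was listed as non-differential on both days. It had 194 sham and 217 border zone tags on day 7, a fold of 1.12 (0.901 to 1.39). Day 14 gave 401 sham and 559 border zone tags, a fold of 1.40 (1.21 to 1.60).

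The difference within this locus is thus one of tags per kb in sham as well as of fold. In sham the neighbouring 1 kb stood at the 94.8th percentile of tags per kb among all listed regions of day 7 and the 84.3rd of day 14. The border zone-higher 2 kb stood at the 17.9th and 4.25th percentiles in sham, and at the 74.2nd and 38.7th in the border zone. Summed over the 3 kb, the locus had 280 sham and 404 border zone tags on day 7, a fold of 1.44 (1.22 to 1.71), and 562 and 932 tags on day 14, a fold of 1.66 (1.48 to 1.86).

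Farther toward the 3′ end, the locus at chr16:92631751-92633250 was listed as non-differential on every day. It had 134 sham and 137 border zone tags on day 4, a fold of 1.02 (0.800 to 1.31). On day 7 it had 141 sham and 144 border zone tags, a fold of 1.02 (0.788 to 1.32). Day 14 gave 377 sham and 575 border zone tags, a fold of 1.52 (1.32 to 1.76). Border zone and sham were thus within counting error on days 4 and 7, with unscaled border zone counts on day 4. On day 14 the border zone was higher without reaching the 1.75-fold of the lists.

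The remaining gene body regions were each listed on a single day. Those of the later days were all border zone-higher. On day 7 a region at chr16:92600251-92601750, 1 kb inside the approximate 3′ end, had 17 sham and 57.2 border zone tags, a fold of 3.36 (1.90 to 6.23). On day 14 a region at chr16:92609251-92610250, 9.8 kb inside that end, had 50 sham and 151 border zone tags, a fold of 3.02 (2.14 to 4.30). Both reached the tag minimum of their day through the border zone only, so they could be listed only with the border zone ahead. These lie so near the approximate 3′ end that their part of the window is not certain. The day 14 region at chr16:92822251-92824250 lay 6.7 kb inside the approximate 5′ end and was listed on no other day. It had 200 sham and 395 border zone tags, a fold of 1.97 (1.64 to 2.38). Whether it lies at the distal start cannot be told without an mm9 annotation. The other single-day regions of the gene body, at chr16:92674251-92675250 and chr16:92731751-92732750, were non-differential on day 4. They had 33 sham and 48 border zone tags, and 46 sham and 51 border zone tags.

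Upstream of the gene, the locus at chr16:92918251-92919250 was the sham-higher member of days 7 and 14. It lies 88.8 kb from the approximate 5′ end, and sham was ahead there on every day. It had 157 sham and 99 border zone tags on day 4, where it was listed as non-differential with a fold of sham over border zone of 1.59 (1.23 to 2.06). On day 7 it had 86 sham and 28.3 border zone tags, a fold of 3.04 (1.87 to 5.16) in the same direction, and it ranked 669th of the 7704 sham-higher regions by fold. On day 14 it had 435 sham and 214 border zone tags, a fold of 2.03 (1.69 to 2.46). In sham it was among the more accessible listed regions, at the 86.9th percentile of tags per kb on day 4, the 64.7th on day 7 and the 87th on day 14. In the border zone it stood at the 72.3rd, 6.06th and 49.4th percentiles.

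The locus at chr16:93006251-93007750, 177 kb upstream of the approximate 5′ end, was higher in the border zone on every day. It had 61 sham and 80 border zone tags on day 4, a fold of 1.31 (0.928 to 1.86). On day 7 it was listed as a non-differential and a border zone-higher region, with 60 sham and 117 border zone tags in all, a fold of 1.95 (1.39 to 2.76). On day 14 only chr16:93006251-93007250 was listed, with 66 sham and 154 border zone tags, a fold of 2.33 (1.702 to 3.204). On these listed values, with unscaled border zone counts on day 4, the day 4 difference lay within counting error and the later differences did not. In the fit with scaled libraries and a term for day 4, the day 4 log2 ratio of this locus was 0.56. Of the day 7 tags, 33 sham and 53.9 border zone tags came from the non-differential 500 bp. The border zone-higher 1 kb of day 7, at chr16:93006751-93007750, gave 27 and 63.3.

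The upstream locus with the most sham tags, at chr16:92951251-92954250, was non-differential on every day. On days 4 and 7 only chr16:92951251-92953750 of it was listed. Its sham and border zone tags were 251 and 225 for day 4, 171 and 207 for day 7, and 735 and 771 for day 14. The folds were 0.896 (0.745 to 1.08), 1.21 (0.969 to 1.52) and 1.05 (0.938 to 1.17), so that border zone and sham were within counting error on each day. The day 4 fold uses unscaled border zone counts. The 1 kb that adjoins this locus, at chr16:92954251-92955250, was not listed on day 4 and differed from it in list on day 14 only. It had 57 sham and 74.1 border zone tags on day 7, a fold of 1.30 (0.881 to 1.92). On day 14 it was border zone-higher with 177 sham and 396 border zone tags, a fold of 2.24 (1.85 to 2.71). The next 1 kb, at chr16:92955251-92956250, was listed on day 14 as non-differential with 95 sham and 160 border zone tags, a fold of 1.69 (1.28 to 2.24). A few kb beyond, chr16:92958251-92959250 had the opposite direction, with 108 sham tags against 67 in the border zone at day 4 and 246 against 177 at day 14, folds of sham over border zone of 1.61 (1.18 to 2.22) and 1.39 (1.12 to 1.73). Neither difference reached the 1.75-fold of the lists.

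The largest fold of the locus was found upstream on day 14. The region at chr16:92997751-92998750, 168.3 kb from the approximate 5′ end, had 40 sham and 210 border zone tags, a fold of 5.25 (3.68 to 7.63). It ranked 64th of the 5501 border zone-higher regions of that day. In sham it stood at the 0.264th percentile of tags per kb among listed regions, and in the border zone at the 47.9th. It was listed on no other day. On day 7 the region at chr16:93026251-93027250, 196.8 kb upstream, had 16 sham and 50.2 border zone tags, a fold of 3.13 (1.73 to 5.96), and was listed on that day only. It too reached the tag minimum, 50 on that day, through the border zone only. The remaining upstream members were 3 regions listed on day 4 only, all non-differential. The 2 at chr16:92850251-92851250 and chr16:92961251-92962250 had 44 sham tags each and 55 and 54 border zone tags. That at chr16:92975251-92976250 had 61 sham and 34 border zone tags, a fold of sham over border zone of 1.79 (1.16 to 2.82) on unscaled border zone counts.

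Downstream of the gene, where RefSeq's GRCm38.p6 order places the non-coding gene Gm30224 and then Clic6, a chloride intracellular channel gene, sham was higher in every listed region. The locus with the most sham tags there, at chr16:92515751-92517250, was non-differential with 160 sham and 127 border zone tags on day 4. On day 14 only chr16:92516251-92517250 was listed, with 159 sham and 109 border zone tags. The folds of sham over border zone were 1.26 (0.992 to 1.60), on unscaled border zone counts, and 1.46 (1.13 to 1.91). The day 14 value was scaled by a factor of 1.18. With the median factor of that day, 1.37, its log2 of border zone over sham was -0.33 instead of -0.55. The region at chr16:92565751-92566750 was the sham-higher region of day 4, with 44 sham and 14.5 border zone tags, a fold of 3.04 (1.634 to 6.003). No downstream region was listed on day 7.

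**Figure D2:**
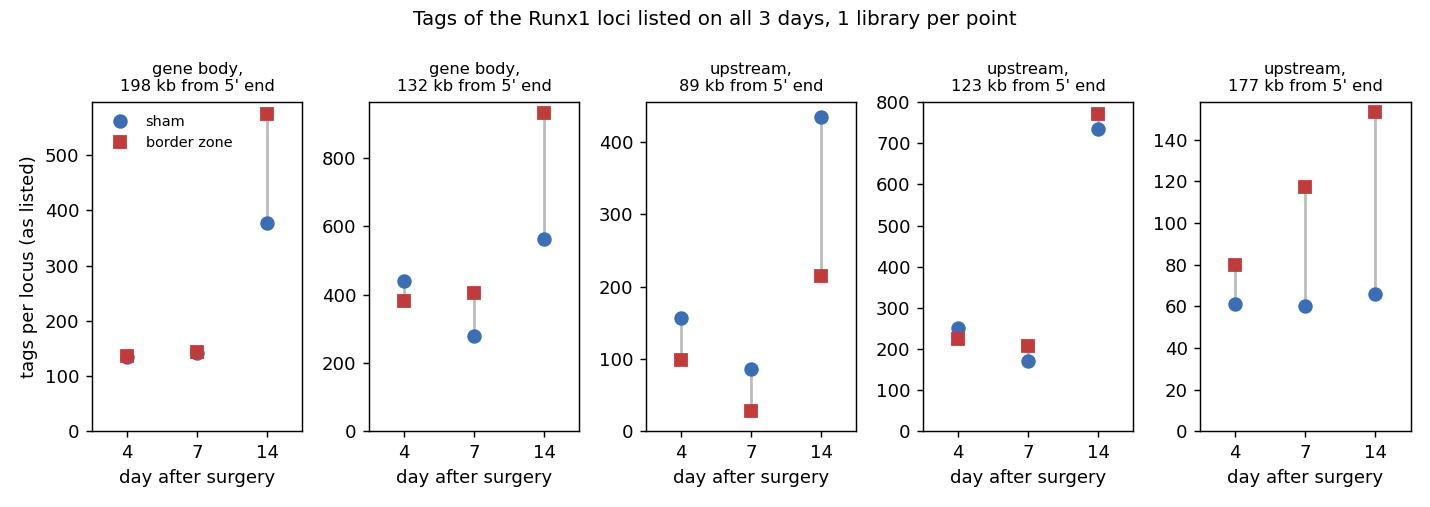
Tags as listed (y axis, from 0) of the 5 loci of the Runx1 window listed on all 3 days are plotted by day after surgery (x axis), with a circle for the sham and a square for the border zone library and 1 library per point. The border zone exceeds sham on days 7 and 14 at the mid-gene locus and at the locus 177 kb upstream, and lies under sham on every day at the locus 89 kb upstream. Border zone values are unscaled counts on day 4 and scaled on days 7 and 14.

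The conditions were compared over the 3 days at the loci listed on every day. edgeR's quasi-likelihood test with day as a block, fitted on whole tags of all 19733 such loci of the genome, called 7.67% of them border zone-higher and 2.32% sham-higher at a Benjamini-Hochberg adjusted p under 0.05. At the Runx1 locus 1 of 5 loci was called in each direction, both upstream. The locus at 177 kb was higher in the border zone by a log2 fold change of 1.08 (SE 0.23, adjusted p = 0.00403 by edgeR), with the border zone ahead on 3 of 3 days. The locus at 89 kb was lower, with a log2 fold change of -0.84 (SE 0.21, adjusted p = 0.0128 by edgeR) and sham ahead on 3 of 3 days. It was the 107th lowest of the 19733 log2 fold changes, and the locus at 177 kb was the 474th highest. Both results depend in part on the tag minimum. The regions at 177 kb reached 50 tags on day 7 and 150 tags on day 14 through the border zone only, so on these days they could be listed only with the border zone ahead. On day 4 both libraries passed the minimum, and the fold at 177 kb lay within counting error on unscaled border zone counts. In the fit with scaled libraries and a term for day 4, its day 4 log2 ratio was 0.56, for which no counting interval was computed. The locus at 89 kb reached 50 tags on day 7 through sham only, while both libraries passed the minimum on days 4 and 14. These p-values therefore do not stand apart from the choice of listed regions.

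The mid-gene locus did not pass this test, with a log2 fold change of 0.56 (SE 0.19, adjusted p = 0.0593 by edgeR) and the border zone ahead on 2 of 3 days. The locus in the 3′ part of the gene gave 0.45 (SE 0.19, adjusted p = 0.125 by edgeR), and the upstream locus at 123 kb gave 0.26 (SE 0.18, adjusted p = 0.359 by edgeR). Day 4 differs from the later days in genotype, isolation and aligner. Without day 4, the mid-gene locus gave 0.88 and the locus in the 3′ part 0.59, with adjusted p of 5.53e-05 and 0.0192 by edgeR. The loci at 177 and 89 kb gave 1.34 and -1, with adjusted p of 1.44e-05 and 0.000509 by edgeR. This fit rests on 2 pairs of libraries with no replicate within a day. That fit called 15.6% of all loci border zone-higher and 10.8% sham-higher. Without day 14 no locus of the window passed, and the adjusted p of the loci at 177 and 89 kb were 0.0996 and 0.24. Without day 7 the locus at 89 kb gave a log2 fold change of -0.69 with an adjusted p of 0.062. Without the day block no locus passed, with an adjusted p of 0.996 for each of the 5 by edgeR.

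Whether day 4 differed from days 7 and 14 was tested with a term for the condition on day 4, which leaves 1 residual degree of freedom. This term called 1.07% of all loci. At the mid-gene locus the log2 ratio was -0.04 on day 4 and 0.86 on the later days, a difference of -0.90 (SE 0.32), which did not pass edgeR's quasi-likelihood test (adjusted p = 0.182). At the other 4 loci adjusted p ranged from 0.548 to 0.725 by edgeR. None of the 5 loci was thus shown to respond differently on day 4.

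Summed over the listed regions of each day, the gene body had sham and border zone tags within counting error on day 4 and more border zone tags on days 7 and 14. It had 654 sham and 618 border zone tags on day 4, a fold of 0.945 (0.845 to 1.06) on unscaled border zone counts. On day 7 it had 438 sham and 605 border zone tags, a fold of 1.38 (1.21 to 1.58). Day 14 gave 1189 sham and 2053 border zone tags, a fold of 1.73 (1.60 to 1.86). The regions summed differ between days, so these folds compare libraries within a day and show no change between days. The sums of days 7 and 14 each include a region near the 3′ end that reached the tag minimum through the border zone only. With the loci listed on all 3 days alone, the log2 ratios were -0.15, 0.38 and 0.68.

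In the upstream part the sum mixes loci of opposite direction. It had 726 sham and 614 border zone tags on day 4, a fold of 0.846 (0.758 to 0.943) on unscaled border zone counts. With a factor per day from all listed tags, the day 4 log2 ratio was -0.13 instead of -0.24. On day 7 the upstream part had 390 sham and 477 border zone tags, a fold of 1.22 (1.06 to 1.42). Day 14 gave 1794 sham and 2082 border zone tags, a fold of 1.16 (1.08 to 1.24). Both sums include regions that reached the tag minimum through the border zone only. Among them are those at 177 and 196.8 kb on day 7 and at 168.3 and 177 kb on day 14. These excesses therefore do not stand apart from the choice of listed regions. The excess of day 14 rests on regions that were not listed on all 3 days. In the 3 upstream loci that were, the log2 ratios of days 7 and 14 were 0.15 and -0.12, against 0.29 and 0.21 in all upstream regions.

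The log2 ratio of the gene body exceeded that of the upstream part on each day, by 0.16, 0.18 and 0.57 for days 4, 7 and 14. The mean difference was 0.30 ± 0.23 (SD, n = 3 days). The exact two-sided permutation test, in which the condition labels were exchanged within each day, gave p = 0.25, the smallest value that 3 pairs allow. With 3 pairs this test cannot reach 0.05, so it does not tell whether the parts differed.

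**Figure D3:**
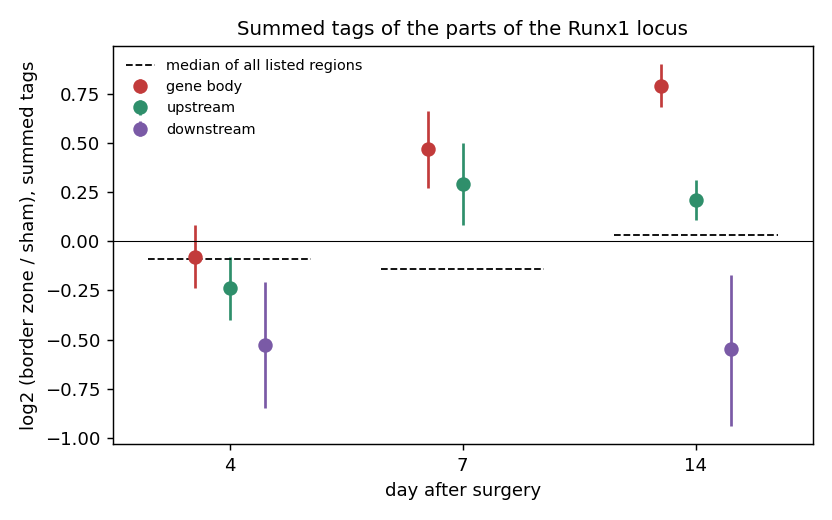
Log2 of border zone over sham for the summed tags (y axis) is plotted by day after surgery (x axis) for the gene body, the upstream and the downstream part of the Runx1 window, with bars for the 95% counting interval and dashed lines for the median of all listed regions of the day. The gene body lies at -0.08, 0.47 and 0.79 on days 4, 7 and 14, and the upstream part at -0.24, 0.29 and 0.21. For both, the day 4 value uses unscaled border zone counts.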

How the data were processed

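Open chromatin of 6 ATAC-seq libraries was analysed from 9 deposited lists of regions with mm9 coordinates, printed here counted from 1. The submitters' processing notes name mm9, bedtools, Bowtie2 (day 4) and BWA (days 7 and 14). How regions were called, with which thresholds, and how duplicate reads were treated was not given in the sources used here. Sham tags are deposited counts. Border zone tags are a deposited signal, scaled by the authors, except for deposited counts in the non-differential list of day 4. The scaling was read from the values. Of 85106 scaled values, 83117 were a whole number times a factor of the day within a relative tolerance of 1e-05, and 1988 were sums of such terms. All members of the Runx1 locus had a single factor or were counts. At the locus the factors were 1 and 1.03 for day 4, 1.17 and 1.35 for day 7, and 1.18 and 1.37 for day 14. The depth of the libraries is unknown, and the tags of the loci in the fit ranged from 1978142 to 10239395 per library. There were 0 columns of unmapped samples.

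No test was made within a day, which has a single library of each condition. Loci listed on all 3 days were tested on whole tags with edgeR 4.0.16 (TMM, quasi-likelihood, Benjamini-Hochberg adjustment over all loci of the genome) in R 4.3.3, with day as a block and 2 residual degrees of freedom. Sham and border zone libraries of the same day deviated together from the mean of their condition (correlation over loci 0.81 to 0.89). With day as a block, the p-values rest on how the difference between border zone and sham varied between the 3 days. That spread mixes time after surgery with the changes of genotype, isolation and aligner, and it is not a spread of replicates. Part of it may be technical. Nothing in the labels says that the libraries came from separate animals. DESeq2 1.42.0, other scalings, filters and overlap rules, and leaving out each day were alternatives. Loci given in full were those differential on at least 2 days, those with an adjusted p under 0.05, and the locus with the most sham tags in each part. Members, lists and tests were chosen with earlier results of these data known, and the term for day 4 was added after these values were seen. Promoter sequences are RefSeq's of GRCm38.p6.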

Additional observations from a re-analysis of the deposited data

Results flagged for a closer look

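On the listed values, both parts and 2 loci lay on opposite sides of equality on different days. The fold of border zone over sham of the gene body was 0.945, 1.38 and 1.73 for days 4, 7 and 14. That of the upstream part was 0.846, 1.22 and 1.16. For these sums the difference between days was not tested, and the day 4 sums of both parts use unscaled border zone counts. The later sums of both include regions that reached the tag minimum through the border zone only. With a factor per day from all listed tags, the day 4 log2 ratio of the gene body was 0.03 instead of -0.08. That of the upstream part was -0.13 instead of -0.24. On the listed values, the median of the 4 gene body regions of day 4 was 0.09 with 3 of them above equality. At the mid-gene locus, chr16:92696751-92699750, the folds were 0.866, 1.44 and 1.66. In the fit with scaled libraries its day 4 log2 ratio was -0.04, and the term for day 4 gave an adjusted p of 0.182 by edgeR. At the upstream locus chr16:92951251-92954250 the folds were 0.896, 1.21 and 1.05, each within counting error, with an adjusted p of 0.701 by edgeR. In the fit with scaled libraries its day 4 log2 ratio was 0.01, on the same side of equality as the later days. Listed day 4 border zone tags of these loci are unscaled, so the side of equality on day 4 depends on the scaling. The part of genotype, isolation and aligner in any difference between day 4 and the later days cannot be told apart from the day.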

How the results depend on the processing

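Of 78 alternative values of the counts, sums and differences, 70 lay within the limits of the main value. Among these, the log2 ratio of the gene body on day 4 changed sign, from -0.08 to 0.03 with a factor per day from listed tags, inside its counting interval. Others could not differ from the main value, because no region crossed a boundary of the parts and the filter on low counts removed no locus. Numbers of differential regions moved by at most 1 region. The log2 ratio of the upstream part on day 14 changed from 0.21 to -0.12 when only loci listed on all 3 days were summed, an alternative that leaves out 4 of its 7 regions. In the test over the 3 days, the number of border zone-higher loci at the Runx1 locus was 0 without the replicate block (day), 0 to 3 when a day was left out, and 0 when regions were matched by midpoints, a rule that left the loci at 132 and 177 kb untested. The number of sham-higher loci was 0 without the replicate block and 0 to 1 when a day was left out. Without the block, 498 border zone-higher and 88 sham-higher loci of the genome had an unadjusted p under 0.05 by edgeR, none of them at the Runx1 locus. Over the genome, the 1513 border zone-higher and 458 sham-higher loci became 0 and 0 without the block, 3083 and 2138 without day 4, 952 and 128 without day 7, 553 and 21 without day 14, and 1026 and 116 with DESeq2. DESeq2 with the block called the same 2 loci, with adjusted p of 0.0102 and 0.0499. All 38 alternative fold changes of the 5 loci kept their sign. The mean difference between gene body and upstream part ranged from 0.17 to 0.37 when a day was left out, where 2 pairs cannot go below an exact p of 0.5. Leaving out regions within 10 kb of a gene end, chosen after seeing the data, gave 0.24. The tag minimum limits what is listed, and of the 20 loci of the window 15 could not be tested over the 3 days.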
